A study of Mus musculus with 9 samples.

Results

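The p53 axis and the cyclin-dependent kinase (CDK) inhibitors were described in tumor cells of the 4T1 series from 10 genes: Trp53, Mdm2, Cdkn1a, Cdkn1b, Cdkn1c, Cdkn2a, Cdkn2b, Cdkn2c, Ccng1 and Sesn2. Members were the genes of this list that the array annotation named for a probe of the intensity table. Of the 10 listed genes, 9 had a named probe, with 17 named probes in all. The annotation used here covered the 22834 probes with a deposited log2 value, out of 45281 in the table. The other probes could not be searched for members. No probe was named for Trp53 in this annotation, so that Trp53 is named only. A probe was taken as detected on an array where its detection p-value against the negative controls was under 0.05, and was tested where at least 3 of the 9 arrays detected it. This left 7 members among the 10021 genes tested, because Cdkn1c and Cdkn2b were detected on no array.

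The 4T1 series consists of related mouse mammary carcinoma lines, which differ in how far they spread from the mammary gland, from 67NR (none) through 4T07 (small lung deposits) to 4T1 (open metastasis). In all 3 groups, 500000 cells of 1 line were placed orthotopically in mammary fat pad number 4 of female Balb/c mice that carry GFP in their own cells (Ub-GFP), and tumors averaging 10 mm across formed, untreated, within 2 to 4 weeks. Cells negative for both GFP and CD45 were then sorted from the primary tumors, which sets the cancer cells apart from GFP-positive host cells and CD45-positive leukocytes, and their total RNA was hybridised to Illumina mouse bead arrays, with 3 arrays per line. Each group rests on 1 line, the sources used here give neither the age of the mice nor whether replicates came from separate mice, and the p-values measure only the spread between these arrays, which may be technical.

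p53 is a transcription factor that accumulates after DNA damage, oncogene activity and other stresses. Mdm2 is both its target and the ubiquitin ligase that marks it for degradation, and the p19Arf product of Cdkn2a holds Mdm2 back. Among p53 targets, Cdkn1a encodes p21, which inhibits cyclin-CDK complexes and halts the cycle, Ccng1 encodes cyclin G1 and Sesn2 encodes sestrin 2, a stress-induced brake on mTORC1. The Cip/Kip inhibitors Cdkn1a, Cdkn1b (p27) and Cdkn1c (p57) bind cyclin-CDK complexes broadly, whereas the INK4 inhibitors Cdkn2a (p16Ink4a), Cdkn2b (p15) and Cdkn2c (p18) block Cdk4 and Cdk6, which phosphorylate the retinoblastoma protein. Levels are given below as log2 of the background-corrected, quantile-normalized intensity, a scale on which member probes that an array did not detect lay between 4.41 and 5.10, and are compared between lines within a probe only.

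Mdm2, Cdkn1a, Ccng1, Sesn2 and Cdkn2a were lower in both 4T07 and 4T1 cells than in 67NR cells, Cdkn2c was higher in both, and Cdkn1b did not pass the test. In 4T1 against 67NR cells, 5 of the 7 members tested were lower and 1 was higher (limma, adjusted p under 0.05 over all genes), where 26.6% of all genes tested were called lower and 23.2% higher. The median log2 fold change of the 7 members was -2.15, beside -0.047 over all genes. That median is the fitted value of Sesn2, which no 4T1 array detected, so that its size depends on the background correction. In 4T07 against 67NR cells, again 5 were lower and 1 higher, where 23.4% of all genes were called lower and 21.9% higher, with a median of -1.81 beside -0.048. Between 4T1 and 4T07 cells 2 members, Cdkn1a and Sesn2, were lower in 4T1, none was higher and 5 were not called, where 15.8% of all genes were called lower and 14.0% higher, with medians of -0.12 and -0.0054. Both comparisons against 67NR share the 3 arrays of 67NR cells, so that they are not independent of each other. Cdkn2a was detected in 67NR cells only, and so entered the test through the line where it is high. In both comparisons against 67NR, Cdkn2a could hardly be called other than lower.

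**Figure D1:**
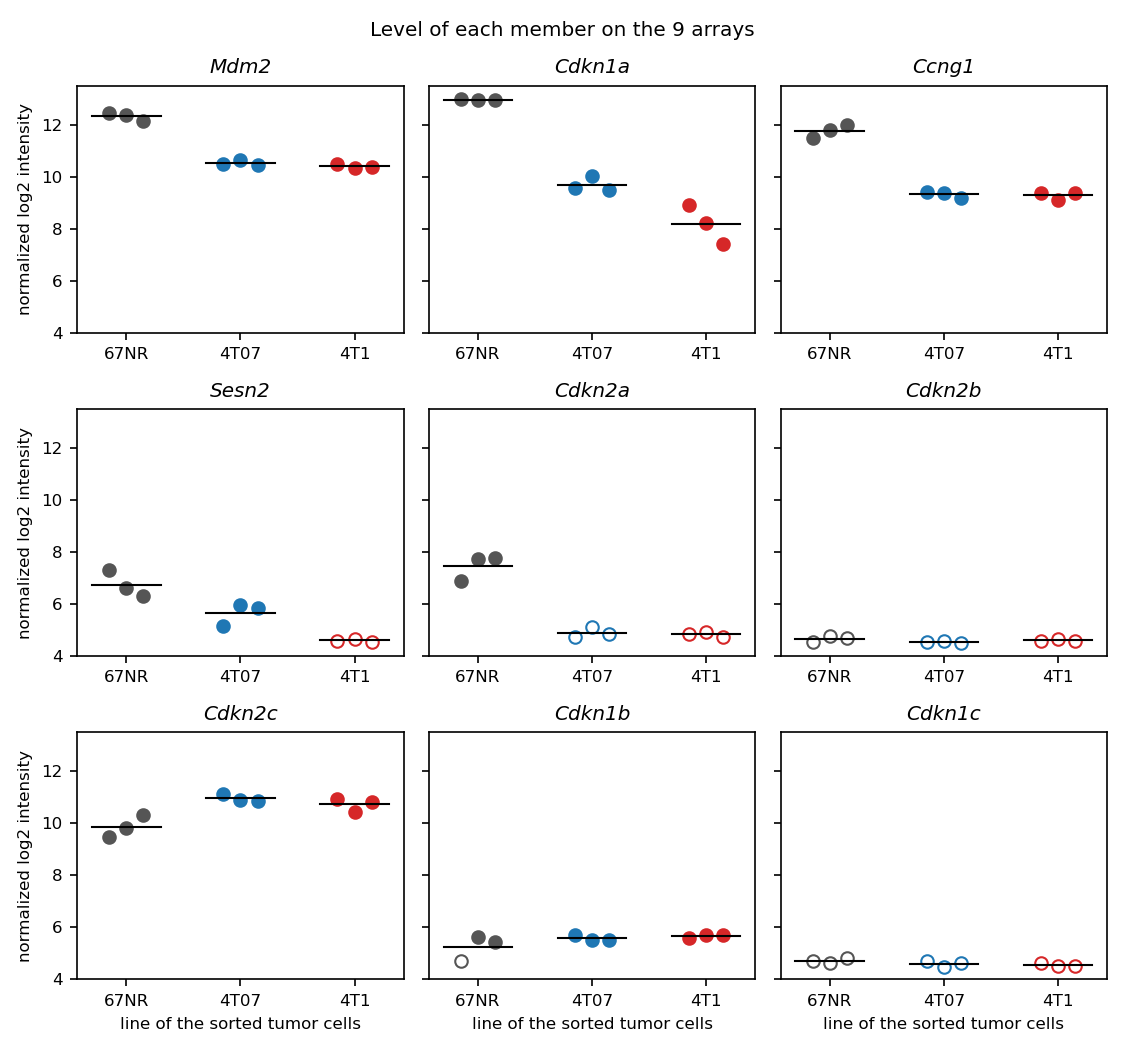
Normalized log2 intensity (y axis) of the 9 members with a named probe on each of the 3 arrays of 67NR, 4T07 and 4T1 cells (x axis). Points are arrays, filled where the probe was detected and open where it was not, and lines are group means. Mdm2, Cdkn1a and Ccng1 sit above 11 on every 67NR array and below 11 on the other arrays, Cdkn2a is filled only in 67NR, and Cdkn1c and Cdkn2b are open throughout.

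Markers of other cell types were read beside the members. Of all genes tested, 26.6% were lower and 23.2% higher in 4T1 than in 67NR cells, and 23.4% and 21.9% in 4T07 cells. Of the 8 epithelial markers tested, 8 were higher in 4T1 than in 67NR cells and 5 were higher in 4T07 cells (3 without 67NR replicate 1 or 4T07 replicate 3). Their summed linear level ranged from 226 to 249 on the 67NR arrays, from 4988 to 8084 in 4T07 and from 36419 to 45000 in 4T1. In 67NR cells the keratins Krt18, Krt14 and Krt19 and the claudins Cldn3 and Cldn4 were detected on no array, and Krt5 was detected on none of the 9, whereas Krt8 was detected on all 3 of the 67NR arrays (5.60 to 6.17) and Cdh1 and Krt7 on 1 each. Leukocyte markers summed to 1231 to 2757 in 67NR, 914 to 1066 in 4T07 and 563 to 604 in 4T1, with 4 of 4 tested lower in 4T1 and 2 of 4 lower in 4T07, and Adgre1 was detected nowhere. These counts fell to 2 in 4T1 without 67NR replicate 1 or 2 or 4T1 replicate 1 or 3, and to 1 in 4T07 without 67NR replicate 1 or 2 or 4T07 replicate 2 or 3. Fibroblast and pericyte markers summed to 2598 to 3547, 2899 to 4353 and 1044 to 1199 in the same order, with 4 of 7 lower and 1 higher in 4T1 (0 higher without 67NR replicate 3 or 4T1 replicate 1), 2 lower and 1 higher in 4T07 (2 higher without 4T07 replicate 1), and Fap, Postn and Rgs5 detected nowhere. In 4T07 the fibroblast and pericyte shares, 28.6% lower and 14.3% higher, lay near those of all genes. The hemoglobin gene Hba-a1, the 1 erythroid marker tested, was detected only in 67NR cells, where it summed to 198 to 350. Hba-a1 and Lum entered the test through 67NR cells alone, and Krt19 and Cldn3 through 4T1 cells alone, which fixed the direction they could be called in. The 1 endothelial and 1 adipocyte marker tested were not called, and Vwf, Adipoq and Fabp4 were detected nowhere. The part of these differences in the results for the p53 axis was not tested, and in bulk samples fewer cells of a type and less RNA per cell cannot be told apart.

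Cdkn1a, the p53-induced gene of the CDK inhibitor p21, was lower in both other lines than in 67NR. Its level was 13.00, 12.98 and 12.95 on the 3 arrays of 67NR cells, 9.56, 10.02 and 9.49 in 4T07 cells, and 8.92, 8.23 and 7.43 in 4T1 cells. The 3 lines did not overlap, 67NR arrays lay within 0.06 of each other and 4T1 arrays were the most spread (SD 0.75, n = 3). Cdkn1a was 27.5-fold lower in 4T1 than in 67NR cells (log2 fold change -4.78, SE 0.30, limma adjusted p = 1.01e-07) and 9.73-fold lower in 4T07 cells (-3.28, SE 0.30, limma adjusted p = 3.14e-06). It was also 2.83-fold lower in 4T1 than in 4T07 cells (-1.50, SE 0.30, limma adjusted p = 0.0030), which made Cdkn1a and Sesn2 the members that separated all 3 lines. This last difference did not pass the methods' test (adjusted p = 0.104).

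Each of the 3 probes of Cdkn1a gave the same order of the lines. On the second probe the level went from 10.59 to 11.05 in 67NR, from 7.59 to 8.16 in 4T07 and from 5.70 to 6.80 in 4T1 cells, and on the third from 10.38 to 10.49, from 6.82 to 7.65 and from 4.90 to 5.50, where 4T1 replicate 3 was not detected. The log2 fold changes of the 3 probes lay between -5.13 and -4.55 in 4T1 against 67NR, between -3.28 and -3.07 in 4T07 against 67NR and between -1.91 and -1.49 in 4T1 against 4T07, and all were called. The genes whose level followed Cdkn1a most closely over the 9 arrays were Cetn4 (Pearson r = 0.994), Drc3 (0.991) and Stard6 (0.991), but 194 of the 10021 genes had r above 0.95 with it, and the 9 points fall into 3 lines.

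Promoter windows of the members were examined after the p53 targets Mdm2, Cdkn1a, Ccng1 and Sesn2 had been seen to be lower in both other lines. The windows run from 250 bases before to 50 after each RefSeq transcript start (build GRCm38.p6), and 9 of the 10 members had at least 1, for 12 windows in all. They were searched for the p53 response element consensus, 2 half-sites of 10 bases with no spacer, which reads the same on both strands, allowing at most 2 mismatches outside the C and G at the core of each half-site. This search was chosen after the values had been seen. A match was present in 107 of all 32851 windows (0.326%), and in 2 of the 12 windows of the members, 1 of Cdkn1a and that of Ccng1, each with 1 mismatch. Of all windows, 0.067% held a match with at most 1 mismatch. The 250 bases before both starts are shown with the matched 20 bases in capitals, as the stretch that these 2 members have and the other windows do not.
Cdkn1a, chr17:29090729-29090978, + strand: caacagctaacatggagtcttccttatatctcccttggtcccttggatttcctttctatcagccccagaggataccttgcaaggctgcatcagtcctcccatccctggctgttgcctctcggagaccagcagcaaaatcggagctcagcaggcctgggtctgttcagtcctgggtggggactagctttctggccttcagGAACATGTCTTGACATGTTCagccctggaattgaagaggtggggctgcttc
Ccng1, chr11:40755287-40755536, - strand: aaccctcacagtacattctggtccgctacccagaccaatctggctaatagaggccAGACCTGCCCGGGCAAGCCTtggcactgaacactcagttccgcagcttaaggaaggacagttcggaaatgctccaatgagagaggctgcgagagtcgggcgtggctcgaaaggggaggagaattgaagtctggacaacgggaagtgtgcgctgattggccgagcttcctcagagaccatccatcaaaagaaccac
In Cdkn1a the match lies from -51 to -32 relative to the upstream of its 2 starts, which are 2790 bases apart, and the window at the downstream start held none. In Ccng1 it lies from -195 to -176. No window of Mdm2, Sesn2, Cdkn2a, Cdkn2b, Cdkn2c, Cdkn1b or Trp53 held a match, which says only that these letters are not in these windows. A match is a description of sequence and no measure of p53 binding.

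Mdm2, the ligase that limits p53, was high in 67NR cells at 12.48, 12.38 and 12.16, and lower in 4T07 cells at 10.49, 10.65 and 10.46 and in 4T1 cells at 10.51, 10.34 and 10.37. The 67NR arrays stood clear of the other 6, while 4T07 and 4T1 arrays overlapped. Mdm2 was 3.83-fold lower in 4T1 (log2 fold change -1.94, SE 0.13, limma adjusted p = 2.62e-07) and 3.51-fold lower in 4T07 cells (-1.81, SE 0.13, limma adjusted p = 5.68e-07). The difference between 4T1 and 4T07 was -0.12 with a 95% interval from -0.42 to 0.17. A second Mdm2 probe gave -1.92 and -1.78 against 67NR.

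Ccng1, which encodes the p53-induced cyclin G1, followed the same course. Its level was 11.48, 11.79 and 11.98 in 67NR, 9.41, 9.37 and 9.20 in 4T07, and 9.38, 9.10 and 9.37 in 4T1 cells, again with 67NR apart and the other lines overlapping. It was 5.54-fold lower in 4T1 (log2 fold change -2.47, SE 0.16, limma adjusted p = 1.22e-07) and 5.37-fold lower in 4T07 cells (-2.42, SE 0.16, limma adjusted p = 1.71e-07). The interval of the difference between 4T1 and 4T07 ran from -0.39 to 0.30. Its 3 probes were all called lower against 67NR, between -2.75 and -2.35 in 4T1 and between -2.42 and -2.01 in 4T07. The other 2 probes lay lower on every 4T1 than on every 4T07 array (log2 fold changes -0.34 and -0.45), without passing the test (limma adjusted p = 0.173 and 0.0618).

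Sesn2, the sestrin that restrains mTORC1 under stress, was lower in both other lines as well. It read 7.32, 6.60 and 6.31 in 67NR cells, 5.15, 5.97 and 5.84 in 4T07 cells, and 4.58, 4.66 and 4.54 in 4T1 cells, where no array detected it. The lines did not overlap. Sesn2 was at least 3.23-fold lower in 4T1 than in 67NR cells (limma adjusted p = 3.42e-05) and at least 1.52-fold lower in 4T1 than in 4T07 cells (limma adjusted p = 0.0104), where "at least" sets the bright line against the higher of the lowest detected signal of each dim array and the probe's own. It was 2.13-fold lower in 4T07 than in 67NR cells (log2 fold change -1.09, SE 0.26, limma adjusted p = 0.00511). Its size depended on the background: with the authors' deposited values, which keep it, the log2 fold changes were -0.84 in 4T1 and -0.45 in 4T07 against 67NR, and -0.38 between 4T1 and 4T07, all still called. By the methods' test, 4T07 against 67NR and 4T1 against 4T07 were not called (adjusted p = 0.110 and 0.0642).

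**Figure D2:**
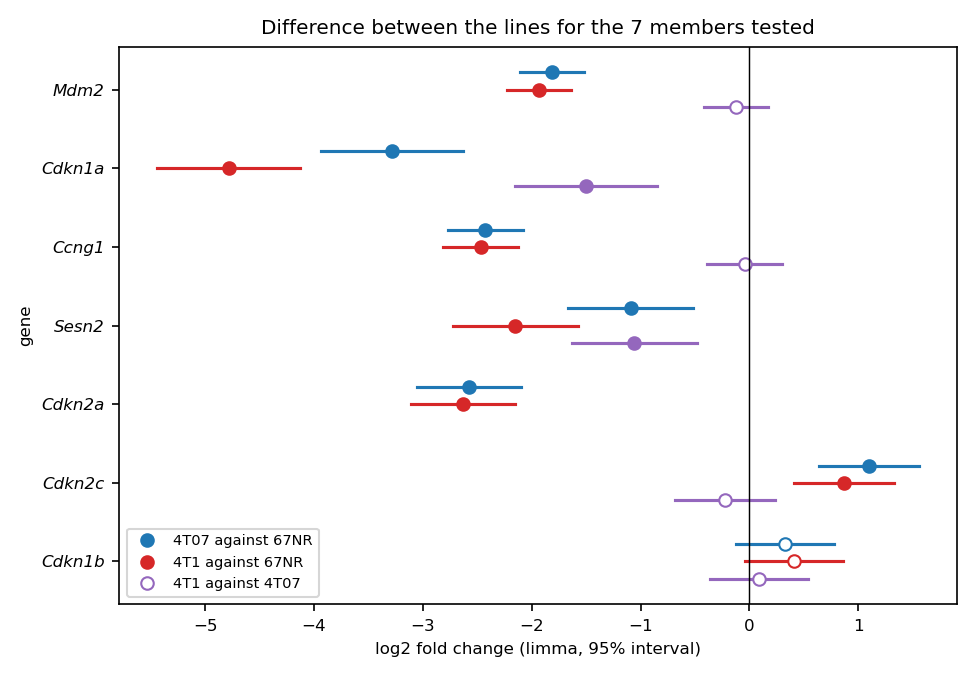
Log2 fold change (x axis) of the 7 members tested (y axis) in 4T07 against 67NR, 4T1 against 67NR and 4T1 against 4T07. Bars are 95% intervals from limma, and filled points passed an adjusted p of 0.05. Cdkn1a reaches -4.78 and is filled in all 3 comparisons, whereas Mdm2 and Ccng1 are filled only against 67NR. Points of Sesn2 in 4T1 and of Cdkn2a are fitted values against lines without detection, and Cdkn2a has no point for 4T1 against 4T07, where neither line detected it.

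Cdkn2a yields p16Ink4a and p19Arf from separate first exons, whose starts lie 12427 bases apart in RefSeq. Its brighter probe read 6.89, 7.74 and 7.75 in 67NR cells and was detected on none of the other 6 arrays, which lay between 4.72 and 5.10. Cdkn2a was at least 5.30-fold lower in 4T1 (limma adjusted p = 1.29e-06) and at least 5.17-fold lower in 4T07 cells (limma adjusted p = 1.76e-06) than in 67NR cells. A second probe read 6.31, 6.71 and 6.62 in 67NR cells and was likewise not detected in 4T07 or 4T1 cells, with fitted log2 fold changes of -1.96 and -2.04. The sources used here do not say which of the transcripts each probe reads. The fitted log2 fold changes of the brighter probe, -2.63 in 4T1 and -2.57 in 4T07, were -1.11 and -1.09 with the authors' deposited values, still called. Between 4T1 and 4T07 both levels are at background, so that the fitted difference is no measure of a fold. Over the 9 arrays, Cdkn2a was followed most closely by Pcdh17 (Pearson r = 0.997), Aaas (0.994) and Dpt (0.993), with 317 genes above 0.95. Because Cdkn2a lay at background in 4T07 and 4T1 cells, these correlations mostly restate that 67NR differs from the other lines.

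Neither neighbor of Cdkn2a on chromosome 4 differed between the lines as Cdkn2a did. Cdkn2b, the adjacent gene on 1 side, was detected on no array of any line, at 4.51 to 4.77 with a lowest detection p of 0.218. Mtap, the adjacent protein-coding gene on the other side, which encodes an enzyme of methionine salvage, was detected on all arrays. It was higher in 4T1 than in 67NR cells by 1.41 on the log2 scale (SE 0.15, limma adjusted p = 1.12e-05), higher in 4T07 by 0.76 (SE 0.15, limma adjusted p = 0.00150) and higher in 4T1 than in 4T07 by 0.65 (SE 0.15, limma adjusted p = 0.00714). These are levels of RNA and carry no measure of gene copies.

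Genes known to regulate the Cdkn2a and Cdkn2b locus moved in both directions. Of 13 tested, 6 were lower and 3 higher in 4T1 than in 67NR cells, 5 lower and 2 higher in 4T07, and 1 lower and 2 higher in 4T1 than in 4T07, with medians of -0.24, -0.40 and -0.16. Against 67NR, 26.6% of all genes tested were lower and 23.2% higher in 4T1, and 23.4% and 21.9% in 4T07. In 4T1 against 4T07, 15.8% of all genes were lower and 14.0% higher. Of the smaller counts, the 2 higher in 4T07 became 1 without 67NR replicate 3 or 4T07 replicate 1 or 2, and the 1 lower in 4T1 than in 4T07 became 2 without 4T07 replicate 3. Tbx3, a T-box repressor of the locus, was detected only in 67NR cells and was at least 7.89-fold lower in 4T1 and at least 7.70-fold lower in 4T07 cells (limma adjusted p = 3.00e-08 and 3.48e-08). Tbx3 entered the test through the 67NR arrays alone, and so could hardly be called other than lower. The Polycomb genes Eed (-1.21 and -1.05 in 4T1 and 4T07), Ezh2 (-1.03 and -0.95) and Bmi1 (-0.93 and -0.82), which encode parts of complexes that silence the locus, were lower than in 67NR. Cbx8 was lower in 4T1 (-1.05) and not called in 4T07. The Polycomb genes Cbx7, Suz12 and Rnf2 are named after their values were seen. Against 67NR, Cbx7 was higher in 4T1 (0.52) and 4T07 (0.73, limma adjusted p = 0.0145 and 0.00211), and Suz12 and Rnf2 were called in neither. Ets2, an activator of p16Ink4a, was higher in 4T1 than in 67NR by 1.62 and than in 4T07 by 2.38, and was lower in 4T07 than in 67NR (-0.76), a call lost without 67NR replicate 1 or 2 or 4T07 replicate 1 or 2 (limma adjusted p up to 0.0885).

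The INK4 inhibitor Cdkn2c moved the other way from Cdkn2a. It read 9.46, 9.81 and 10.3 in 67NR cells, 11.11, 10.91 and 10.85 in 4T07 cells, and 10.93, 10.45 and 10.81 in 4T1 cells, so that every 67NR array lay below the rest while 4T07 and 4T1 overlapped. Cdkn2c was 2.14-fold higher in 4T07 (log2 fold change 1.10, SE 0.21, limma adjusted p = 0.00121) and 1.83-fold higher in 4T1 cells (0.87, SE 0.21, limma adjusted p = 0.00473), and the interval between 4T1 and 4T07 ran from -0.68 to 0.24. By the methods' test the difference in 4T1 was not called (adjusted p = 0.0802). Its 3 probes did not give the same calls. The first was called in 4T1 (0.85) and not in 4T07 cells (0.43, limma adjusted p = 0.0894), and the third in neither (0.14 and 0.54, limma adjusted p = 0.623 and 0.0570), although all 6 estimates were above 0.

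Cdkn1b, which encodes p27, was dim in every line, at 4.71, 5.61 and 5.44 in 67NR, 5.70, 5.50 and 5.52 in 4T07, and 5.59, 5.69 and 5.69 in 4T1 cells. Only 67NR replicate 1 failed to detect it, and the lines overlapped. Its log2 fold change was 0.41 in 4T1 (95% interval -0.04 to 0.86) and 0.32 in 4T07 cells (-0.13 to 0.77), and was called in neither. Without 67NR replicate 2 it was 0.59 in 4T1 and passed the test (limma adjusted p = 0.0411). Cdkn1c was at background on all 9 arrays (4.47 to 4.80, lowest detection p 0.192). Without the filter on detection, neither Cdkn1c nor Cdkn2b was called in any comparison (lowest limma adjusted p 0.319). The other CDK inhibitors tested, Cdkn2d and Cdkn3, were called in no comparison, although Cdkn3 was called lower in 4T1 than in 67NR without 67NR replicate 1 or 2, with the authors' deposited values, without background correction, with an offset of 50 or with the replicate block, and lower in 4T1 than in 4T07 in a fit of those lines alone. Of 4 genes of inhibitor turnover, Skp2 was higher and Rbx1 lower in 4T1 than in 67NR cells (log2 fold changes 0.61 and -0.64). That is 25% in each direction, near the 26.6% of all genes called lower and 23.2% called higher. The call of Skp2 was lost with the authors' deposited values (limma adjusted p = 0.0971), without background correction (0.0886), with an offset of 50 (0.0737), without the filter (0.0551), with the replicate block (0.0679), by the methods' test (0.0958), and without any 1 of the 67NR arrays or 4T1 replicate 2 or 3 (up to 0.157). That of Rbx1 was lost with median centring (limma adjusted p = 0.0692), by the methods' test (0.113), and without 67NR replicate 2 or 3 or any 1 of the 4T1 arrays (up to 0.149).

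At the level of probes, 11 of the 15 kept member probes were lower and 2 higher in 4T1 than in 67NR cells, where 24.3% and 21.8% of all 15686 kept probes were. In 4T07 against 67NR, 11 were lower and 1 higher, where 21.6% and 20.0% of all were. In 4T1 against 4T07, 4 were lower and 0 higher, where 13.7% and 12.4% of all were, the 4 being the 3 probes of Cdkn1a and that of Sesn2. Probes of 1 gene share its RNA and are not replicates. Both probes of Cdkn2a were kept through the 67NR arrays alone, so that they could hardly be called higher against 67NR.

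**Figure D3:**
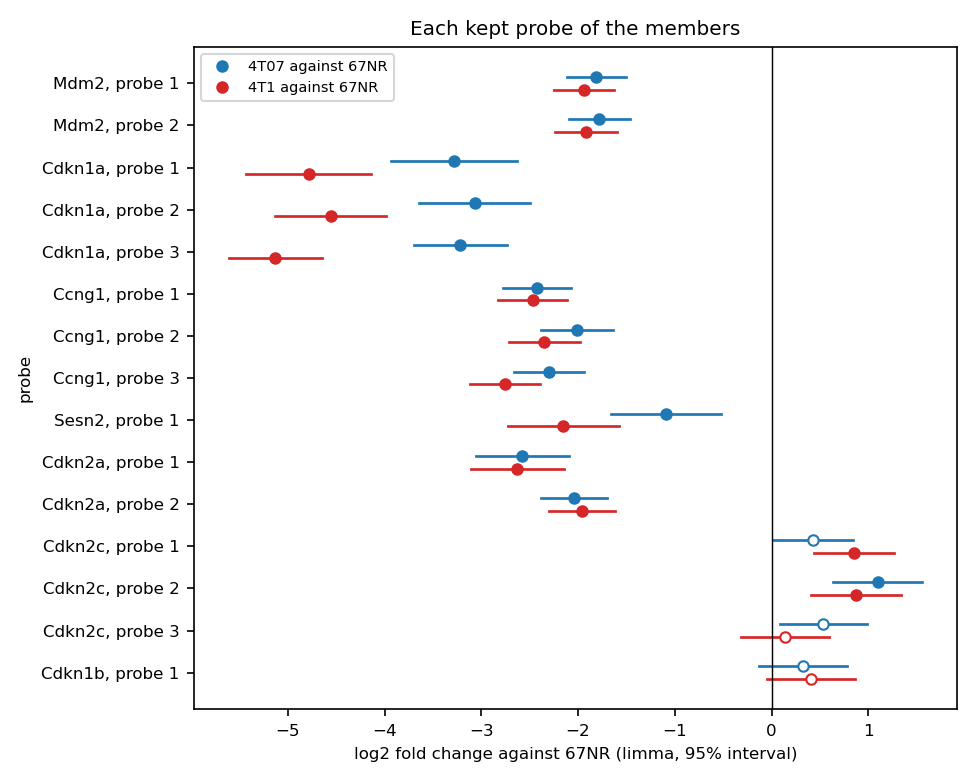
Log2 fold change against 67NR (x axis) of the 15 kept probes of the members (y axis) in 4T07 and 4T1 cells. Bars are 95% intervals from limma and filled points passed an adjusted p of 0.05 over all kept probes. The probes of Mdm2, Cdkn1a, Ccng1 and Cdkn2a are all filled and below 0, whereas those of Cdkn2c lie between 0.14 and 1.10 and only 3 of their 6 points are filled.

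Other p53 target genes were lower more often than higher against 67NR. Of 30 listed, 21 were tested, and 12 were lower and 5 higher in 4T1 cells, with a median of -0.75. In 4T07 cells 13 were lower and 4 higher, with a median of -0.63, and in 4T1 against 4T07 cells 4 were lower and 5 higher, with a median of 0.11. The 4 lower became 2 without 4T07 replicate 2 or 4T1 replicate 2. Over all genes tested, 26.6% were lower and 23.2% higher in 4T1, and 23.4% and 21.9% in 4T07, against 67NR. Those shares were 15.8% and 14.0% in 4T1 against 4T07. Pmaip1 and Rprm were detected on no array. Psrc1, among the lower genes in both lines, was detected in 67NR cells only, and so entered the test through that line. Among the lower genes, the kinase gene Plk2 differed by -2.81 (SE 0.40, limma adjusted p = 0.000137) in 4T1 and -1.98 (SE 0.40, limma adjusted p = 0.00186) in 4T07. Its levels ranged from 10.19 to 11.90 in 67NR, from 8.53 to 9.75 in 4T07 and from 8.29 to 8.64 in 4T1.

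Phlda3, which restrains Akt, was lower in both lines, with log2 fold changes of -2.37 in 4T1 and -1.54 in 4T07, as was Zmat3, an RNA-binding protein gene, at -1.60 and -1.57. Pidd1, a scaffold for caspase-2, was lower at -1.56 and -1.71, and Trp53inp1, a nuclear cofactor of p53, at -0.75 and -1.85. Trp53inp1 was then higher in 4T1 than in 4T07 cells by 1.09 (limma adjusted p = 0.00172), a direction opposite to that of Cdkn1a.

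The genes of the list that were higher included 5 in 4T1 cells: Sfn, Tnfrsf10b, Gadd45a, Ddb2 and Xpc, of which Ddb2 and Xpc are named after their values were seen. Sfn, which encodes 14-3-3 sigma, a cell cycle inhibitor made in epithelial cells, was not detected in 67NR cells, was detected on 1 array of 4T07 cells and read 7.83 to 8.22 in 4T1 cells. It was at least 7.22-fold higher in 4T1 than in 67NR cells (limma adjusted p = 1.03e-08) and was called higher in 4T1 than in 4T07 cells (limma adjusted p = 1.27e-07), where its levels ran from 4.60 to 5.14. The death receptor gene Tnfrsf10b was higher by 1.03 in 4T1 and 1.65 in 4T07. The nucleotide excision repair genes Ddb2 and Xpc were higher by 0.94 and 0.64 in 4T1 cells and by 0.77 and 0.48 in 4T07 cells. Gadd45a, a stress sensor, was higher in 4T1 than in 67NR cells by 0.86 and than in 4T07 cells by 1.29 (limma adjusted p = 0.00866 and 0.00146). Fas, a death receptor gene, was 2.90-fold higher in 4T07 than in 67NR cells (log2 fold change 1.54, limma adjusted p = 0.000243), the opposite direction to Cdkn1a, Mdm2 and Ccng1. It was lower in 4T1 than in 4T07 cells (-0.98, limma adjusted p = 0.00890) and was not called in 4T1 against 67NR (0.55, limma adjusted p = 0.0725).

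**Figure D4:**
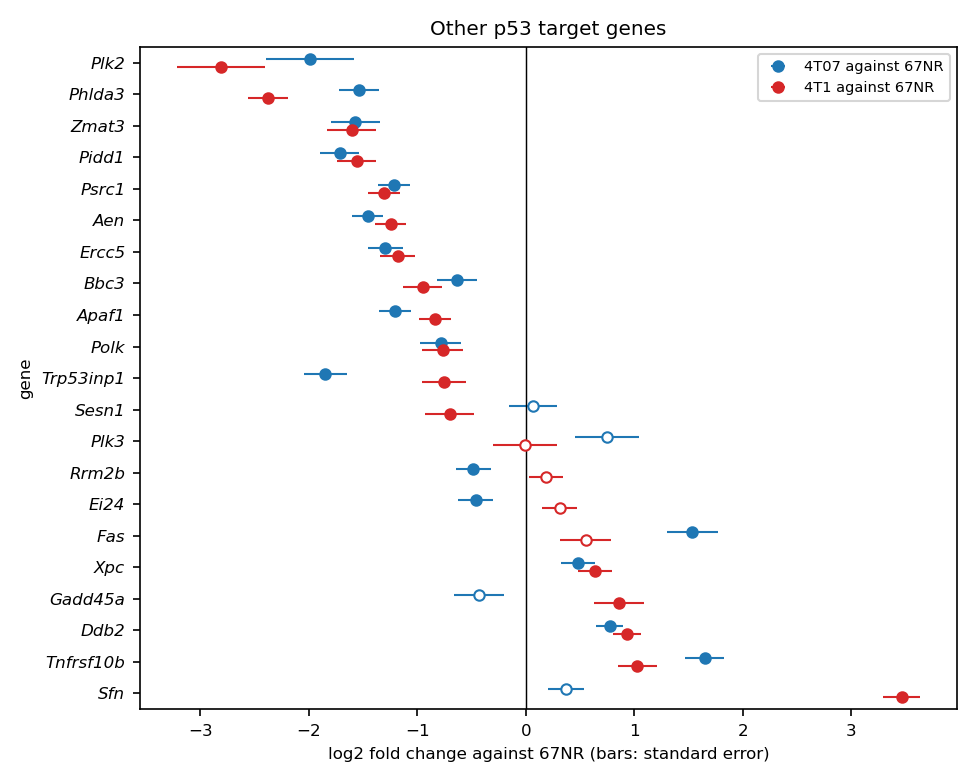
Log2 fold change against 67NR (x axis) of the 21 other p53 target genes tested (y axis, ordered by the value in 4T1) in 4T07 and 4T1 cells. Bars are standard errors from limma and filled points passed an adjusted p of 0.05. Plk2 and Phlda3 lie lowest, at -2.81 and -2.37 in 4T1, and Sfn is filled above 0 in 4T1 only. Points of Sfn and Psrc1, and of Aen in 4T07, are fitted values that set a line against one without detection.

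Regulators and relatives of p53 were called in part. Of 16 tested, 6 were lower and 0 higher in 4T1 than in 67NR cells (median -0.38), 5 lower and 1 higher in 4T07 cells (median -0.036), and 2 lower and 1 higher in 4T1 than in 4T07 cells (median -0.0069). The shares of all genes called lower and higher in these comparisons were 26.6% and 23.2%, 23.4% and 21.9%, and 15.8% and 14.0%. Leaving out 1 array gave 3 lower in 4T07 (without 4T07 replicate 2) and 1 higher in 4T1 (without 67NR replicate 2 or 4T1 replicate 2). Between 4T1 and 4T07 it gave 1 lower without 4T07 replicate 1 or 2 or 4T1 replicate 2, 5 lower without 4T07 replicate 3, and 0 higher without 4T07 replicate 1 or 2 or 4T1 replicate 1 or 3. Ppm1d, which encodes the Wip1 phosphatase, itself a p53 target that switches the response off, was lower, with log2 fold changes of -1.75 in 4T1 and -1.48 in 4T07 (limma adjusted p = 1.76e-05 and 7.35e-05). Mdm4, the partner of Mdm2, was lower in both lines (-0.72 in each), as was the checkpoint kinase gene Chek2 (-0.83 in 4T1 and -0.81 in 4T07). The kinase gene Hipk2 was lower in 4T1 than in 67NR cells (-0.77), a call that did not pass with the mean of its probes (limma adjusted p = 0.0897). It was also lower in 4T1 than in 4T07 cells (-1.07), and was not called in 4T07 against 67NR (0.30, limma adjusted p = 0.156). Trp63, a relative of p53, was detected in no 67NR array and was at least 1.72-fold higher in 4T07 cells (limma adjusted p = 0.00600).

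The kinases that the CDK inhibitors act on, and their cyclins, were called in both directions. Of 9 genes of the G1 and S phase tested, 5 were lower and 2 higher in 4T1 than in 67NR, 4 lower and 3 higher in 4T07, and 4 lower and 1 higher in 4T1 than in 4T07, with medians of -0.55, -0.0040 and -0.38. Beside them, 26.6% of all genes were lower and 23.2% higher in 4T1, and 23.4% and 21.9% in 4T07, against 67NR. Between 4T1 and 4T07 these shares were 15.8% and 14.0%. The 2 higher in 4T1 became 1 without 67NR replicate 2 or 3 or 4T1 replicate 1 or 2, and the 1 higher in 4T1 than in 4T07 became 0 without 4T07 replicate 1 or 3 or 4T1 replicate 2 or 3. Cdk6, a partner of the D cyclins, was lower than in 67NR cells in 4T1 (log2 fold change -1.28) and in 4T07 (-0.63, lost without any 1 of the 4T07 arrays or 67NR replicate 1 or 2, limma adjusted p up to 0.128). Ccne2, a cyclin E gene, was lower than in 67NR cells in 4T1 (-1.18) and in 4T07 (-0.84). Cdk2 and Cdk4, kinases of S phase entry and G1, were lower in both lines (-0.55 and -0.63 in 4T1, -1.02 and -0.82 in 4T07). Ccnd2, a D cyclin gene, was higher in 4T07 than in 67NR by 1.68 (limma adjusted p = 2.28e-05), higher in 4T1 by 0.54 (limma adjusted p = 0.0368, lost without 67NR replicate 2 or 3 or 4T1 replicate 1 or 2) and lower in 4T1 than in 4T07 (-1.15, limma adjusted p = 0.00101).

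Of 11 genes of the Rb and E2F family, 5 were lower and 2 higher in 4T1 than in 67NR, 3 lower and 2 higher in 4T07, and 3 lower and 1 higher in 4T1 than in 4T07, with medians of -0.36, 0.10 and -0.31. Of all genes, 26.6%, 23.4% and 15.8% were called lower in these comparisons, and 23.2%, 21.9% and 14.0% higher. Against 67NR, the 5 lower in 4T1 became 3 without 67NR replicate 1, the 2 higher became 1 without 67NR replicate 2 or 3 or 4T1 replicate 1 or 3, and the 3 lower in 4T07 became 1 without 67NR replicate 2 or 4T07 replicate 2. The 1 higher in 4T1 than in 4T07 became 0 without 4T07 replicate 2 or 4T1 replicate 3. Rb1 itself was lower in 4T1 (log2 fold change -0.99, limma adjusted p = 0.000576), as was its relative Rbl1 (-0.99, limma adjusted p = 0.000317), and Rb1 was lower in 4T07 by a smaller estimate (-0.53, limma adjusted p = 0.0262, lost without 67NR replicate 2 or 3 or 4T07 replicate 2). E2f1, an activator of S phase genes, read 10.21 to 10.56 in 67NR, 11.08 to 11.13 in 4T07 and 9.55 to 9.82 in 4T1 cells, with no overlap. It was thus highest in 4T07 (0.69 against 67NR, limma adjusted p = 0.00186) and lower in 4T1 than in 4T07 (-1.38, limma adjusted p = 2.41e-05). E2f2 was lower than in 67NR in 4T07 (-2.00) and in 4T1 (-0.90, lost without 67NR replicate 1 or 3 or 4T1 replicate 1 or 2, limma adjusted p up to 0.0944), and E2f6, a repressor, was higher by 1.04 in 4T07 and 0.81 in 4T1.

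Proliferation markers were lower or not called in all 3 comparisons. Of 9 tested, 7 were lower and 0 higher in 4T1 than in 67NR cells, 3 lower and 0 higher in 4T07 cells, and 2 lower and 0 higher in 4T1 than in 4T07 cells, with medians of -0.63, -0.36 and -0.40. Among all genes, the shares called lower were 26.6%, 23.4% and 15.8% in these comparisons, and those called higher 23.2%, 21.9% and 14.0%. The 7 became 4 without 4T1 replicate 2 and 3 without 67NR replicate 3, with median centring or by the methods' test, and the 3 became 1 without 67NR replicate 3 or 4T07 replicate 3 or by the methods' test. The 2 lower in 4T1 than in 4T07 became 1 without replicate 2 or 3 of either line and 0 by the methods' test, and Mcm5 was called higher there with the authors' deposited values, without background correction and with an offset of 50. The mitotic kinase genes Aurkb and Plk1 were lower in 4T1 than in 67NR (log2 fold changes -1.28 and -1.06), Plk1 was lower in 4T07 as well (-0.61, lost without 67NR replicate 3 or 4T07 replicate 2 or 3), and the replication helicase gene Mcm5 was lower in 4T07 (-0.72).

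**Figure D5:**
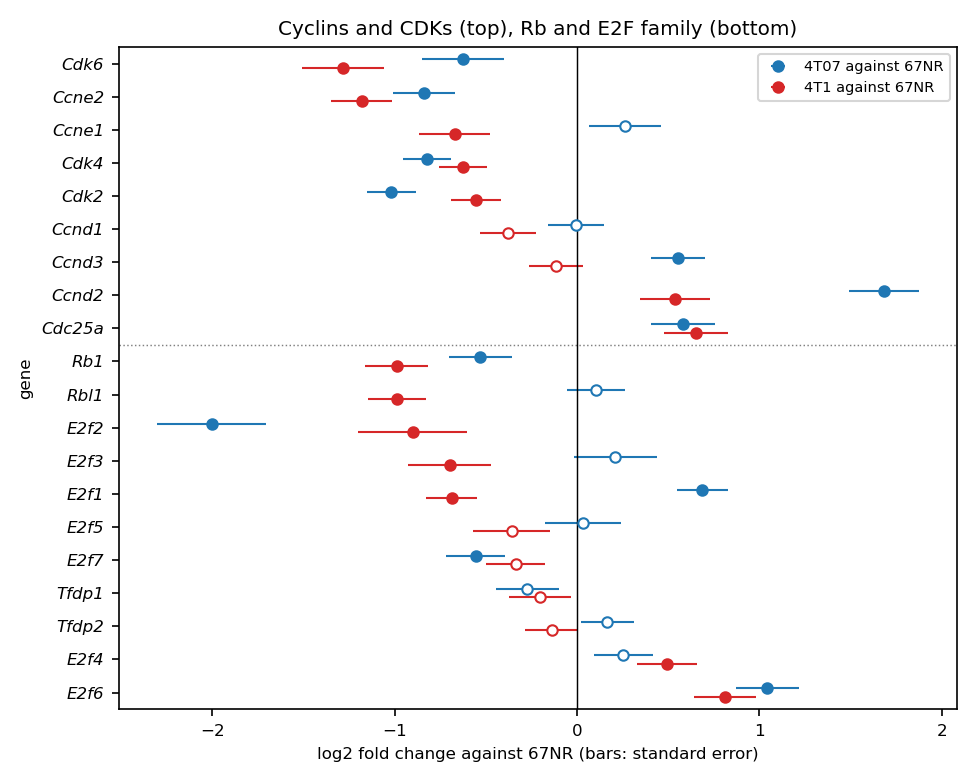
Log2 fold change against 67NR (x axis) of 9 genes of G1 and S phase cyclins and CDKs (top) and 11 genes of the Rb and E2F family (below the dotted line) in 4T07 and 4T1 cells. Bars are standard errors from limma and filled points passed an adjusted p of 0.05. Ccnd2 reaches 1.68 and E2f2 -2.00 in 4T07, and E2f1 lies at 0.69 in 4T07 and at -0.69 in 4T1. The point of E2f7 in 4T07, where it was not detected, is a fitted value.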

How the data were processed

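Tumor cells of 67NR, 4T07 and 4T1 were measured on 3 arrays each. Per the labels, sorted-cell total RNA was amplified to biotinylated cRNA. The authors deposited an intensity on a linear scale for each of 45281 probes, neither background-subtracted nor normalized, with a detection p-value that the authors' software gave for each probe and array. They also deposited log2 values for 22834 probes, quantile-normalized (median 7.48 on every array), used here as an alternative. The sources used here give no array software, slide or scan.

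Among the latter probes, the platform annotation named 19281 for 1 gene, 10 for several and 3543 for none. 19261 were matched to the RefSeq gene table by Entrez ID and 0 symbols changed. Intensities were corrected and quantile-normalized with neqc (limma 3.58.1, R 4.3.3, offset 16, with the negative controls estimated through the detection p-values). Named probes were kept where 3 or more of the 9 arrays had a detection p under 0.05 (15686), and each gene was read from its brightest kept probe (10021 genes). Lines were compared with lmFit and eBayes on all 9 arrays, with Benjamini-Hochberg adjustment over all genes and a threshold of 0.05, and in a second fit over all kept probes. Where no array of a line detected a probe, a bound is given. Log2 differences of dim probes depend on the background correction.

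Between 16025 and 17566 probes were detected per array. Arrays of 1 line correlated at 0.983 or higher, 4T1 with 4T07 at 0.930 to 0.942, 4T07 with 67NR at 0.857 to 0.865 and 4T1 with 67NR at 0.835 to 0.846. The number of arrays limits the precision.

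The members, the other gene lists and the markers were chosen with earlier results of these data known. Named are all members with a probe, from each other list up to 4 called genes with the largest change in a comparison, and for Cdkn1a and Cdkn2a the 3 most similar genes. Alternatives were other background corrections, median centring, the authors' values, other filters, the mean of probes, the replicate number as a block, fits without the line not compared, the t-test that the study's methods name, and leaving out each array.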

Additional observations from a re-analysis of the deposited data

How the results depend on the processing

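The directions and calls of the members against 67NR were the same under each alternative tried, with the exceptions named here. By the methods' t-test, 1835 genes were called in 4T1 against 4T07 after Benjamini-Hochberg adjustment, beside 2985 with limma, and 0 of the 7 members, beside 2 (unadjusted p under 0.05: 3588 genes and 2 members, with limma 3995 and 2). It also did not call Cdkn2c in 4T1 against 67NR (adjusted p = 0.0802) or Sesn2 in 4T07 against 67NR (0.110), nor, with adjusted p from 0.0513 to 0.124, Mdm4, Chek2 and Trp53inp1 in 4T1 against 67NR, Plk2 and Trp63 in 4T07 against 67NR, and Mtap, Gadd45a and Fas in 4T1 against 4T07. Against 67NR, the t-test also did not call Ccnd2 (0.0863) and E2f2 (0.0777) in 4T1, or Ets2 (0.168), Cdk6 (0.201), Rb1 (0.129) and Plk1 (0.141) in 4T07. The call of Cdk6 in 4T07 was further lost with the authors' values, with median centring and without the line not compared. Median centring also lost Rb1 in 4T07 and E2f2 in 4T1, and the mean of probes and the replicate block lost Ccnd2 in 4T1. In 4T1 against 4T07, where neither gene was called, the fitted difference of Cdkn2a, which lay at background in both lines and measures no fold, turned to 0.014 with the mean of its probes, and when 1 array was left out it ranged from -0.14 to 0.055 (above 0 without 4T07 replicate 2) and Ccng1 from -0.11 to 0.049 (above 0 without 4T1 replicate 2). The cause was not tested.

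Leaving out each array in turn gave 4409 to 4627 genes called in 4T1 against 67NR, 3897 to 4323 in 4T07 against 67NR and 2217 to 2928 in 4T1 against 4T07, and 6 to 7, 6 and 2 members. Over the member differences and alternatives, 328 kept direction and side of the threshold, 3 turned, 4 were lost and 1 was gained (Cdkn1b in 4T1 against 67NR, without 67NR replicate 2). For the other named genes, 1405 did and 177 were lost. Replicate numbers did not pair the arrays. Deviations from the line means correlated at -0.169 to 0.153 between arrays with the same number and at -0.173 to 0.208 between different numbers, and with the replicate block 4938, 4466 and 2855 genes and 6, 6 and 2 members were called. No slide is named in the sources used here, so that no fit blocked on it could be run.

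Of the called genes, 46.6%, 48.4% and 46.9% were higher in the 3 comparisons, and 55.2%, 54.8% and 50.5% with median centring. Signal near background limits Sesn2, Cdkn1b and Cdkn2a, whose log2 fold changes shrank without background correction. The size of the Cdkn1a difference varied as well. Over the alternatives its log2 fold change lay between -5.15 and -4.37 in 4T1 against 67NR and between -1.87 and -1.12 in 4T1 against 4T07.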
